A study of Drosophila melanogaster with 58 samples.

Results

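The testis and sperm protein genes described here are ocn, don, janB, dj, Mst87F, Mst98Ca and Mst98Cb, taken by gene symbol, each through its brightest probe set on average over 58 arrays. Of these 7 symbols, 6 matched a probe set and don matched none and was not analysed here, so the account covers 6 of the 11982 genes named on the array. Each of the 6 had 1 probe set. All of them lie on chromosome 3R in RefSeq's Release 6 gene table, where ocn neighbours janB, Mst98Ca neighbours Mst98Cb, and dj neighbours djl.

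Fly sperm form in the testis, in the abdomen, where round spermatids elongate into long tails and their chromatin is repacked. Messenger RNAs for many sperm proteins are made in the male germ line ahead of this step and are translated late. ocn and janB are testis genes of the janus family, dj encodes don juan, a basic protein of the sperm nucleus and tail, and Mst87F, Mst98Ca and Mst98Cb encode tail proteins rich in cysteine, glycine and proline repeats.

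RNA was taken from heads of Oregon R flies, a wild-type laboratory strain. They were unmated males, 10 days old, housed 30 to a vial at 25 °C and fed their diet for 7 days. The 15 groups ate plain food (normal food), food with 1 compound, or food with pentylenetetrazole (PTZ, a drug that provokes seizures) and 1 further compound. The single compounds were PTZ, levetiracetam (an antiepileptic drug), glucosamine, mannitol, olmesartan and quinapril (blood pressure drugs), moxifloxacin (an antibiotic) and gemfibrozil (a lipid-lowering drug). The partners of PTZ were oxaprozin, an anti-inflammatory drug, and levetiracetam, glucosamine, mannitol, olmesartan and quinapril from among the single compounds. Each group had 4 arrays, except moxifloxacin with 2. The sources used here give no doses and do not say whether replicate arrays are of separate vials, so the p-values speak of the spread among arrays only, and that spread may be technical. Levels are log2 values from robust multi-array averaging, on which a difference of 1 is a 2-fold change, and they are compared within a gene, not between genes.

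The arrays carried the signal of heads. Retina genes had a median level of 10.59 to 11.72 in the 15 groups and pan-neuronal genes one of 9.09 to 9.85. The 5′ minus 3′ signal of the control genes eIF-4a and GAPDH, a measure of RNA and labelling integrity, was lowest in normal food (-6.42 ± 0.22, SD, n = 4) and highest in PTZ with levetiracetam (-4.14 ± 0.23). It ran from -6.21 to -4.73 in the other groups, and its part in the results was not tested beyond the fits with it as a covariate. In whole heads, fewer cells of a type and less RNA per cell cannot be told apart.

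Levels of ocn fell into 3 separate bands. On normal food its arrays read 6.93, 6.96, 6.85 and 6.87 (mean 6.90 ± 0.053, SD, n = 4). With levetiracetam they read 4.93, 4.62, 5.02 and 4.49 (4.76 ± 0.25), and with moxifloxacin 4.53 and 4.67 (4.60 ± 0.099, n = 2). These latter groups overlapped each other, lay below every normal food array and lay above all 48 arrays of the remaining 12 groups, which ran from 1.86 to 2.66 with a median of 2.24. Gemfibrozil came next with 2.60, 2.64, 2.66 and 2.65, above every array of PTZ with glucosamine, the group that followed. From there down, each group overlapped its neighbour. PTZ alone read 2.15, 2.33, 2.29 and 2.14, and the lowest mean was that of PTZ with oxaprozin (2.03 ± 0.099).

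The other janus family gene, janB, was also highest on normal food, at 6.70, 6.78, 6.58 and 6.39 (6.61 ± 0.17), but showed no middle band. Moxifloxacin read 5.04 and 4.65, and levetiracetam read 4.90, 4.71, 4.86 and 4.88. Olmesartan, which was among the lowest for ocn, stood beside them for janB at 4.95, 4.54, 4.89 and 4.59. Every neighbouring pair of groups below normal food overlapped. PTZ read 4.02, 4.03, 4.25 and 4.22, and PTZ with mannitol was lowest at 3.79, 3.55, 3.65 and 3.70 (3.67 ± 0.10).

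The levels of dj had an order of their own. Normal food was highest again, at 5.23, 5.36, 5.10 and 5.26 (5.23 ± 0.11). It was followed by moxifloxacin at 4.52 and 4.72, mannitol at 4.24, 4.73, 4.54 and 4.45, and olmesartan at 4.13, 4.46, 4.49 and 4.35, all below every normal food array and each overlapping its neighbour in this order. Levetiracetam, which ranked second for ocn, was at place 13 of 15 for dj, with 3.10, 3.31, 3.42 and 3.26. PTZ was lowest, with 2.93, 3.41, 2.58 and 2.96 (2.97 ± 0.34), and overlapped levetiracetam.

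Mst87F, the first of the cysteine-rich tail protein genes, followed the order of ocn at its upper end. Its arrays read 5.75, 5.99, 6.15 and 6.27 on normal food (6.04 ± 0.22), 4.50, 3.71, 4.24 and 4.05 with levetiracetam, and 3.57 on both moxifloxacin arrays. Gemfibrozil came next with 3.03, 3.15, 2.98 and 3.34, the lowest of which only just exceeded the highest array of PTZ with mannitol (2.97, 2.93, 2.90 and 2.98). None of these first 4 groups overlapped its neighbour, while all groups from PTZ with mannitol downwards did. PTZ read 3.05, 2.80, 2.92 and 2.85, and the lowest mean was 2.39 ± 0.11 in PTZ with oxaprozin.

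Mst98Ca and Mst98Cb, the neighbouring pair of tail protein genes, had narrower ranges. Mst98Ca read 5.26, 5.07, 5.39 and 5.58 on normal food (5.33 ± 0.21) and 4.55 and 4.46 with moxifloxacin. Then came PTZ with mannitol at 4.18, 4.31, 4.36 and 4.33, ahead of levetiracetam at 4.21, 4.15, 4.12 and 4.64, which it overlapped. The lowest means were 3.53 ± 0.0795 in PTZ with levetiracetam and 3.56 ± 0.22 in PTZ. Mst98Cb was dim throughout, at 2.96, 2.96, 2.88 and 3.16 on normal food (2.99 ± 0.12). It read 2.42, 2.31, 2.45 and 2.55 with levetiracetam and 2.41, 2.42, 2.19 and 2.57 with PTZ and mannitol, and its lowest mean was 2.01 ± 0.066 with olmesartan. For each of the 6 genes, the lowest normal food array exceeded the highest of the other 54 arrays, by 1.84 for ocn, 1.35 for janB, 1.25 for Mst87F, 0.43 for Mst98Ca, 0.37 for dj and 0.31 for Mst98Cb. The share of all probe sets separated in this way was not counted, so the separation is not shown to be particular to these genes.

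**Figure D1:**
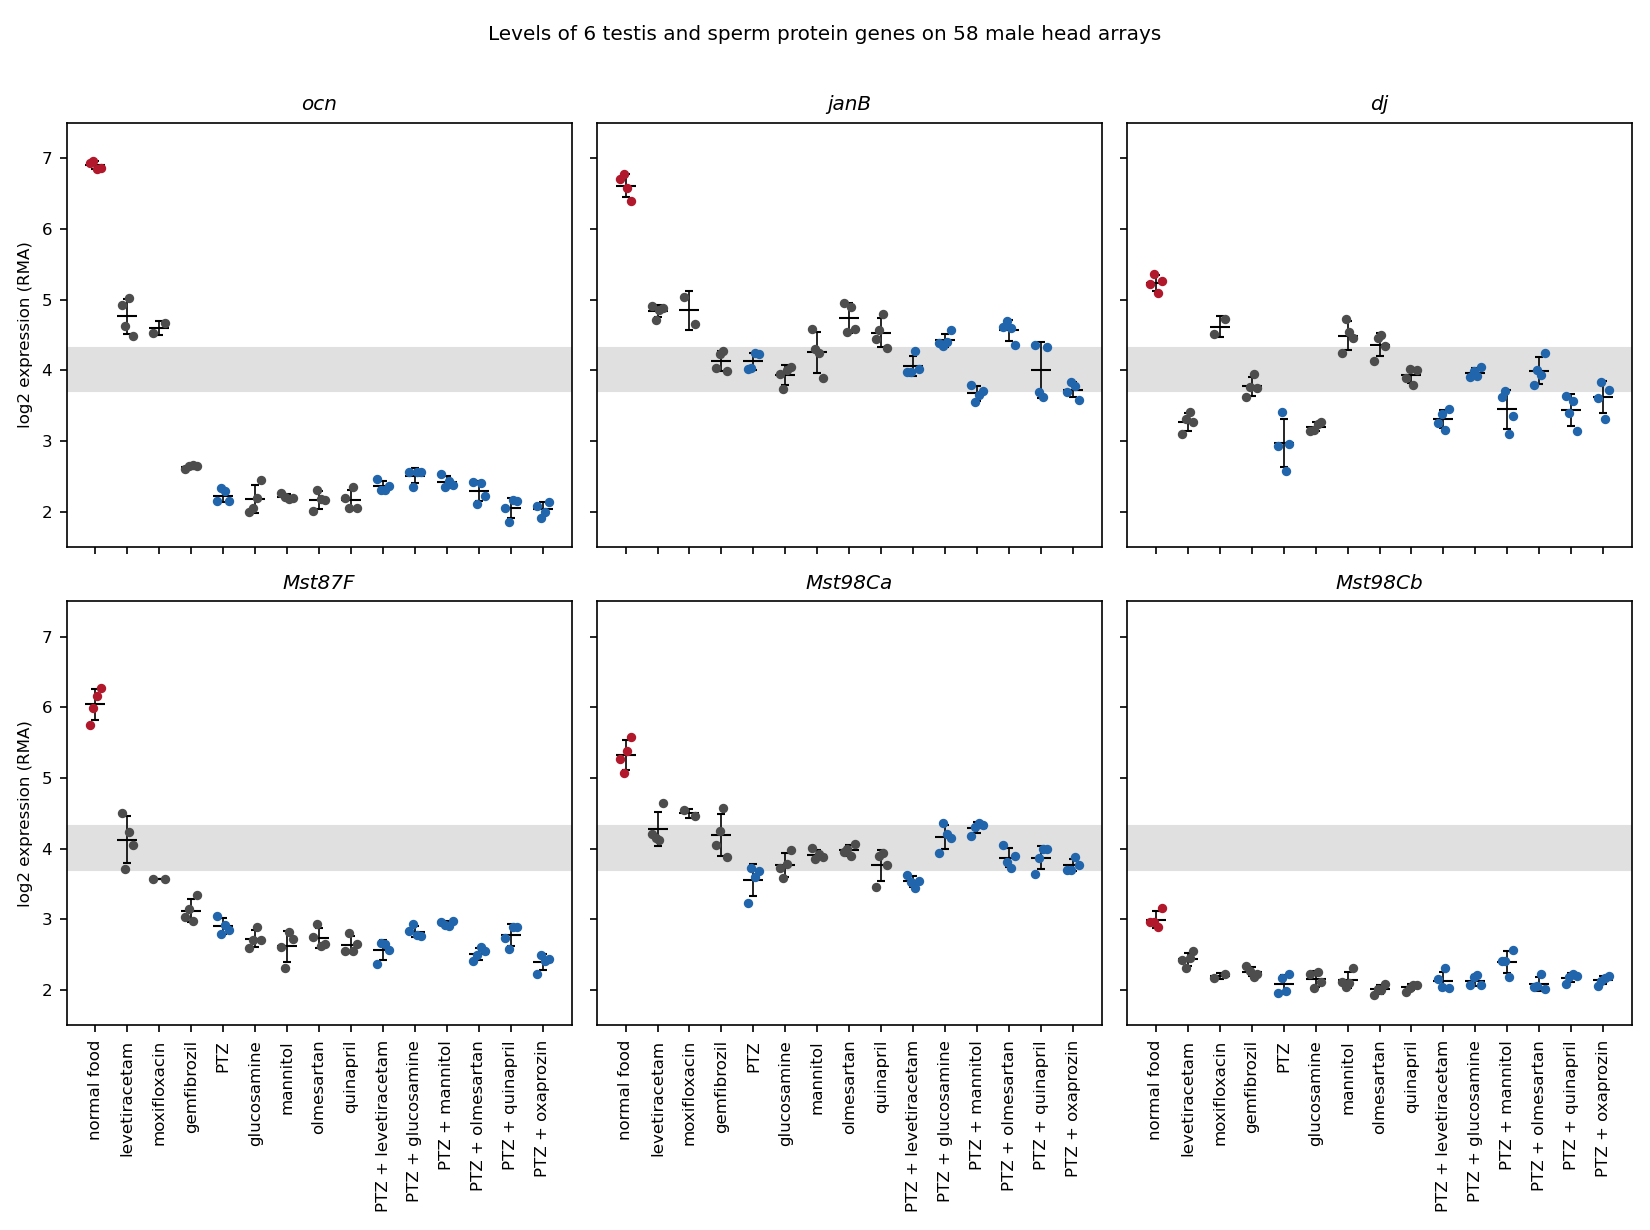
Log2 level (vertical axis) of each gene on every array, by diet group (horizontal axis). Points are arrays (red for normal food, blue for diets with PTZ, grey for other compounds), bars are means with SD, and the grey band is the range over arrays of the 90th percentile of 15 eggshell genes. Normal food is highest in all 6 panels, and levetiracetam and moxifloxacin form a middle band for ocn (4.49 to 5.02) but not for dj.

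The files hold no detection calls. As a background, 15 measured eggshell genes, which are made in ovaries and not in males, were taken on each array, and their 90th percentile ran from 3.70 to 4.32 over the 58 arrays (median 4.03). This sets probe sets of different genes side by side, so it describes the arrays and tests nothing. Above this level on every array were 5 of the 6 genes on normal food (all but Mst98Cb), 4 with moxifloxacin (ocn, janB, dj and Mst98Ca), 3 with levetiracetam (ocn, janB and Mst98Ca) and 2 with olmesartan (janB and dj). In PTZ, PTZ with glucosamine and PTZ with olmesartan this held for janB alone, with mannitol for dj alone, and with PTZ and mannitol for Mst98Ca alone. It held for 0 of 6 in glucosamine, gemfibrozil, quinapril and PTZ with levetiracetam, quinapril or oxaprozin. The groups with and without signal thus differ by gene. For ocn they were normal food, levetiracetam and moxifloxacin against the other 12, for Mst87F normal food and 3 of the 4 levetiracetam arrays against the rest, and Mst98Cb was below the background on every array of every group.

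All 6 genes fell in each of the 8 single-compound groups against normal food. These 8 comparisons share the same 4 normal food arrays, so their results are given side by side and not as repeats of each other. A gene was called when its adjusted p in limma, over all 18769 probe sets of the comparison, was under 0.05, and all 48 tests passed (adjusted p at most 0.000999). For each of them the arrays of the compound lay entirely below those of normal food. The share of all probe sets called lower was 26.4% for PTZ, 17.3% for levetiracetam, 18.9% for glucosamine, 25.4% for mannitol, 24.4% for olmesartan, 19.9% for moxifloxacin, 20.8% for gemfibrozil and 24.0% for quinapril. Lower arrays with no overlap were found, in the same order, for 22.6%, 14.0%, 15.8%, 23.3%, 22.2%, 24.1%, 18.3% and 21.7% of probe sets.

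The sizes differed widely between genes and compounds. Where a compound's arrays lay below the eggshell background, the size is a difference of measured values whose lower end is not above that background, so it is no exact fold and sizes there have no order. This holds, among others, for ocn in all groups but levetiracetam and moxifloxacin, for Mst87F in all but levetiracetam, and for Mst98Cb throughout. ocn fell by 4.68 ± 0.088 (SE) with PTZ and by 4.70 to 4.74 with glucosamine, mannitol, olmesartan and quinapril. It fell by 4.27 with gemfibrozil and, less far, by 2.31 ± 0.11 with moxifloxacin and 2.14 ± 0.088 with levetiracetam, a 4.41-fold lower level. Mst87F fell by 2.92 to 3.42 in the same 6 groups, by 2.47 ± 0.13 with moxifloxacin and by 1.91 ± 0.11 with levetiracetam. janB fell by 1.76 ± 0.16 with moxifloxacin and by 2.68 ± 0.13 with glucosamine, the ends of its narrower span. dj had a profile of its own, in which it fell by 2.26 ± 0.13 with PTZ, 2.04 with glucosamine and 1.96 with levetiracetam, and by only 0.74 with mannitol, 0.87 with olmesartan and 0.62 ± 0.15 with moxifloxacin. Mst98Ca fell by 1.77 ± 0.12 with PTZ and 0.82 ± 0.14 with moxifloxacin, the ends of its range, and Mst98Cb by 0.56 ± 0.070 with levetiracetam to 0.98 ± 0.070 with olmesartan.

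**Figure D2:**
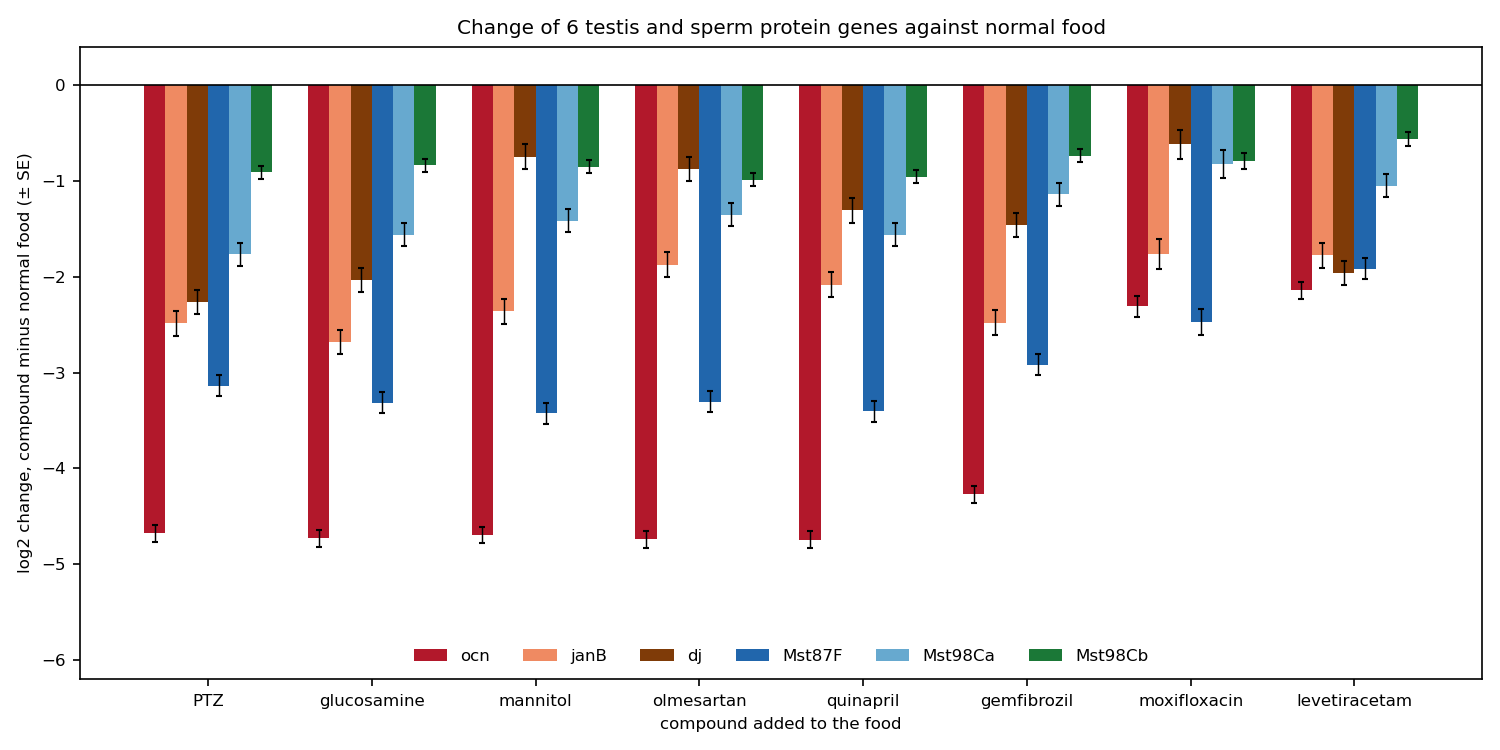
Log2 change (vertical axis, compound minus normal food, with SE) of the 6 genes for each compound (horizontal axis). All 48 bars point down; ocn falls by 4.27 to 4.74 in 6 groups and by 2.14 and 2.31 with levetiracetam and moxifloxacin, where the bars of the 6 genes are most alike in size.

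The median over the 6 genes was -2.37 with PTZ, -2.36 with glucosamine, -1.97 with gemfibrozil, -1.89 with mannitol, -1.84 with levetiracetam, -1.82 with quinapril, -1.61 with olmesartan and -1.29 with moxifloxacin. The median over all probe sets was between -0.022 and 0.023 in these comparisons. Each median of the 6 takes in genes that were below the eggshell background with the compound, so these medians put the compounds in no order. Places among the 18769 probe sets, counted from the lowest difference, are given where every array of both groups was above the eggshell background. With levetiracetam ocn held place 46, janB 76 and Mst98Ca 192. With moxifloxacin ocn held place 22, janB 64, Mst98Ca 423 and dj 792. janB held place 83 with PTZ and 125 with olmesartan, and dj held place 530 with olmesartan and 699 with mannitol.

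Because normal food stood above every other group, a further reference was used, the mean of the remaining single-compound groups with PTZ left out. On this scale levetiracetam and moxifloxacin stood above the rest. With levetiracetam 5 of the 6 genes were higher and dj lower, where 24.2% and 23.4% of probe sets were called higher and lower. ocn was higher by 2.11 ± 0.068 (limma adjusted p = 3.52e-30) and Mst87F by 1.22 ± 0.085, while dj was lower (-0.79 ± 0.098, adjusted p = 1.41e-09). With moxifloxacin 5 were higher (20.0% of probe sets were), among them ocn by 1.91 ± 0.0915 and dj by 0.78 ± 0.13, and Mst98Cb was not called (0.031, adjusted p = 0.787).

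In the other 6 groups ocn was lower than this mean, which holds levetiracetam and moxifloxacin, with differences from -0.38 (gemfibrozil) to -0.93 (quinapril). Lower were 4 genes with PTZ (19.8% of probe sets), 5 with glucosamine (14.0%), 3 with mannitol (18.8%), 3 with olmesartan (16.0%), 2 with gemfibrozil (14.5%) and 4 with quinapril (20.1%). dj rose with mannitol by 0.63 ± 0.098 and with olmesartan by 0.48 ± 0.098, and janB with olmesartan by 0.32 ± 0.10. Those made 1 and 2 genes higher in these groups, where 16.6% and 18.7% of probe sets were. The direction for levetiracetam and moxifloxacin therefore turned with the reference used, for 5 genes in the first and, counting the uncalled Mst98Cb, all 6 in the second.

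Other genes of late sperm formation were measured beside these. Against normal food, the share of all probe sets called lower and higher was 26.4% and 23.9% with PTZ, 17.3% and 21.0% with levetiracetam, 19.9% and 17.6% with moxifloxacin, and 20.8% and 25.3% with gemfibrozil. Of 17 further genes of the sperm tail and late spermatids, 11 fell and 0 rose with PTZ against normal food (median -1.07, against 0.0096 over all genes), 9 fell and 2 rose with levetiracetam, and 10 fell and 0 rose with moxifloxacin. Of 6 sperm chromatin genes, 5 fell in each comparison except moxifloxacin, where 4 did. Mst84Dc, a tail protein gene of the same cysteine-rich family as Mst87F, was at 7.44 ± 0.083 on normal food, 5.13 ± 0.24 with levetiracetam, 5.06 ± 0.067 with moxifloxacin (n = 2), 3.80 ± 0.22 with gemfibrozil and 3.45 ± 0.13 with PTZ. Its family members Mst84Da, Mst84Db and Mst84Dd fell by 3.05, 3.93 and 3.79 with PTZ (SE at most 0.13). ProtB, a protamine that packs sperm DNA, was at 4.65 ± 0.37 on normal food, 2.81 ± 0.13 with levetiracetam and 2.23 ± 0.084 with PTZ. Its means with levetiracetam and PTZ lay below the eggshell background (3.70 to 4.32 over arrays), so they have no order.

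Earlier stages of the male germ line were covered by further lists. Of 14 spermatocyte genes, 3 fell and 1 rose with PTZ, 2 fell and 1 rose with levetiracetam, and 3 fell and 0 rose with moxifloxacin, which is near the share of all probe sets. Among them betaTub85D, the testis-specific beta-tubulin, fell by 2.26 ± 0.097 with PTZ and fell by 1.55 ± 0.097 with levetiracetam, whereas fzo, a mitochondrial fusion gene of spermatids, was at -0.17 ± 0.14 with PTZ (limma adjusted p = 0.347). Of 15 cup and comet genes, which are transcribed after meiosis, 8 fell and 0 rose with PTZ, 6 fell and 2 rose with levetiracetam, and 5 fell and 0 rose with moxifloxacin. Of 4 early germ line genes 1 fell and 0 rose with PTZ, as did 1 and 0 of 5 Y-linked fertility genes, again near the share of all probe sets. Their median levels lay between 2.59 and 2.77 and between 2.00 and 2.26 over the 15 groups, near those of dim probe sets. The lists were chosen with earlier results in view, and the difference between lists was not tested.

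Markers of other abdominal organs moved with the sperm genes, though not in the same order. Of 26 accessory gland genes, which make seminal fluid, 20 fell and 1 rose with PTZ, 16 fell and 1 rose with levetiracetam, 14 fell and 4 rose with moxifloxacin, and 21 fell and 1 rose with gemfibrozil. Their median level over arrays ran from 4.30 to 4.76 on normal food, 3.51 to 4.10 with levetiracetam, 4.75 to 4.76 with moxifloxacin, 3.30 to 3.56 with gemfibrozil and 3.07 to 3.19 with PTZ. Acp98AB, an accessory gland protein gene, was at 10.22 ± 0.089 on normal food, 9.37 ± 0.12 with levetiracetam, 8.46 ± 0.12 with moxifloxacin, 7.38 ± 0.073 with gemfibrozil, 6.42 ± 0.13 with PTZ and mannitol, and 4.97 ± 0.18 with PTZ. In the last 3 of these groups ocn was at 2.64, 2.42 and 2.23.

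Genes of the ejaculatory bulb and duct, which add to the seminal fluid, went both ways. EbpII, a bulb protein gene, was at 10.03 ± 0.045 on normal food, 7.18 ± 0.078 with moxifloxacin, 6.31 ± 0.12 with gemfibrozil, 4.18 ± 0.19 with PTZ and 3.99 ± 0.17 with levetiracetam, where ocn was at 4.76. Of 6 ejaculatory bulb and duct genes, 3 fell in each of PTZ, levetiracetam, moxifloxacin and gemfibrozil, and 3, 2, 3 and 3 rose. EbpIII, of the same bulb, was among those that rose in all of these, by 0.18 to 0.73. Of 10 gut digestive genes, 6 fell and 1 rose with PTZ, levetiracetam and gemfibrozil, and 5 fell and 2 rose with moxifloxacin. LManII, a lysosomal mannosidase gene of this list, rose by 1.20 with PTZ, 0.26 with levetiracetam, 1.21 with gemfibrozil and 0.79 with moxifloxacin (SE at most 0.058). The protease gene betaTry stood at 6.07 ± 0.22 on normal food, 4.80 ± 0.47 with levetiracetam, 3.93 ± 0.040 with moxifloxacin and 3.20 ± 0.17 with PTZ. The part of these organs in the levels of the 6 sperm genes was not tested.

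**Figure D3:**
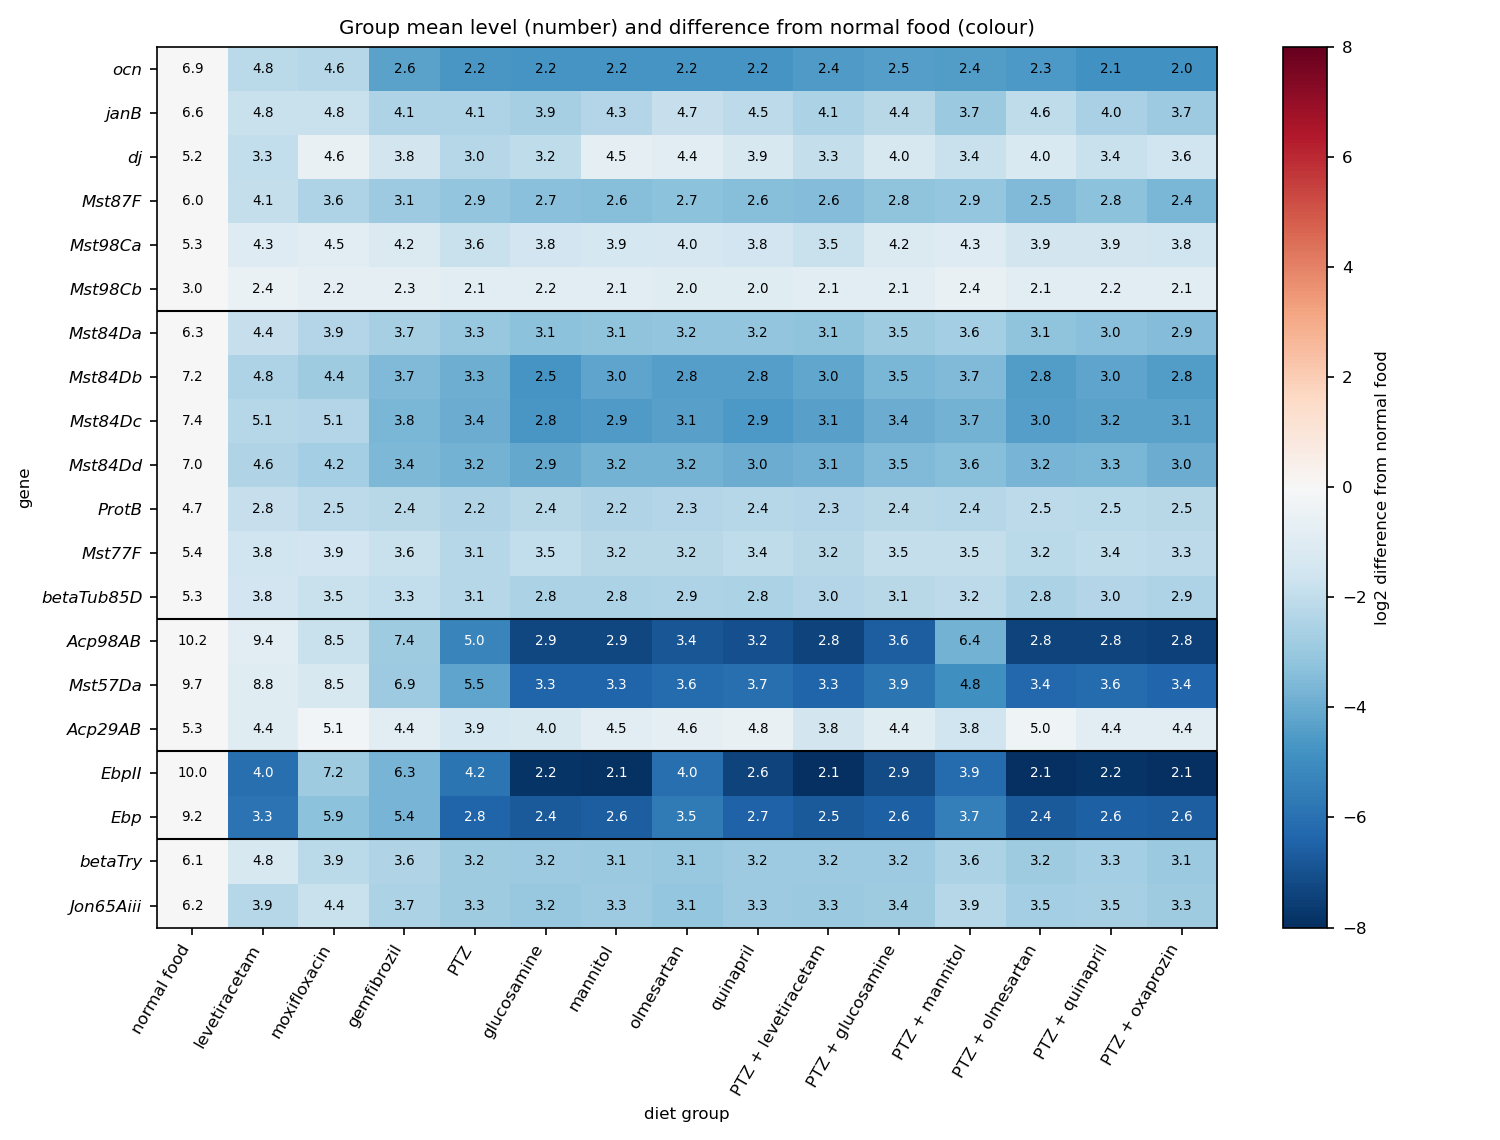
Group mean log2 level (number in each cell) and its difference from normal food (colour) for 20 genes (rows) in 15 diet groups (columns). From top to bottom the lines part the 6 genes described, other sperm tail, sperm chromatin and spermatocyte genes, accessory gland genes, ejaculatory bulb genes and gut genes. Levetiracetam keeps middle levels of ocn and Mst84Dc, and an Acp98AB level nearer to normal food than to PTZ, while EbpII is at 3.99.

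Adding a second compound to PTZ moved single genes and left most of the 6 uncalled in some groups. The 6 comparisons share the 4 PTZ arrays. With glucosamine 3 genes rose and 0 fell (11.7% and 12.4% of probe sets), with mannitol 3 rose and 1 fell (14.7% and 18.8%), and with olmesartan 3 rose and 1 fell (15.5% and 14.9%). Levetiracetam gave 1 rise and 1 fall (18.4% and 20.0%), quinapril 1 rise and 0 falls (9.82% and 11.6%), and oxaprozin 1 rise and 2 falls (17.8% for each). A single gene of 6 is close to the share called among all probe sets in most of these comparisons, so a count of 1 is not a result about the set.

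The gene that rose in every combination was dj, the don juan gene, which was lowest with PTZ alone. It rose by 1.02 ± 0.13 with olmesartan, 0.99 ± 0.13 with glucosamine, 0.65 ± 0.13 with oxaprozin, 0.47 ± 0.13 with mannitol, 0.47 ± 0.13 with quinapril and 0.34 ± 0.13 with levetiracetam (limma adjusted p from 5.31e-09 to 0.0292). When limma was fitted to only the groups compared, dj was not called with mannitol, levetiracetam or quinapril (adjusted p = 0.0776, 0.0969 and 0.105). Its arrays with olmesartan (3.79, 4.00, 3.94 and 4.24) and with glucosamine (3.90, 3.99, 3.92 and 4.04) lay above all PTZ arrays, as 14.1% and 14.4% of probe sets did, and in the other 4 combinations they overlapped them. Mst98Ca rose by 0.74 ± 0.12 with mannitol, 0.60 ± 0.12 with glucosamine and 0.31 ± 0.12 with olmesartan. janB rose by 0.44 ± 0.13 with olmesartan but fell by 0.46 ± 0.13 with mannitol and by 0.41 ± 0.13 with oxaprozin. Mst87F fell by 0.51 ± 0.11 with oxaprozin, 0.39 ± 0.11 with olmesartan and 0.34 ± 0.11 with levetiracetam, and ocn rose by 0.28 ± 0.088 with glucosamine alone. dj was above the eggshell background on 1 array of PTZ with glucosamine and on no other array of PTZ or its combinations. ocn and Mst87F were below it on every array of these groups, and Mst98Ca on every PTZ array. Sizes there are no exact fold and have no order.

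Several of these smaller calls were near the threshold and changed when 1 array was left out. In PTZ with levetiracetam, dj was not called without PTZ replicate 1, 3 or 4 or without combination replicate 2 or 4, and Mst87F without PTZ replicate 1 or combination replicate 1, so that 0 to 2 genes were called. In PTZ with quinapril, dj was lost without PTZ replicate 3 (0 called), and Mst98Ca was gained without PTZ replicate 2 or 4 or combination replicate 1 (2 called). ocn with glucosamine was lost without PTZ replicate 4 (0.25, adjusted p = 0.0529), and Mst98Ca with olmesartan without PTZ replicate 1 or 3 or combination replicate 1, 2 or 4 (adjusted p = 0.0503 to 0.23). When the 5′ to 3′ signal entered the limma fit, 0 genes were called with levetiracetam or oxaprozin. The changes with oxaprozin were then -0.35 ± 0.23 for janB, 0.50 ± 0.22 for dj and -0.44 ± 0.20 for Mst87F, smaller by less than their errors, and those with levetiracetam were 0.099 ± 0.32 for dj and -0.23 ± 0.28 for Mst87F. With the bioB control level as a block, Mst98Ca alone was called with mannitol, while dj was at 0.43 ± 0.19, Mst98Cb at 0.23 ± 0.11 and janB at -0.21 ± 0.19. ocn with glucosamine was not called under the block, at 0.34 ± 0.14. All arrays of both combinations were at the upper bioB level and all PTZ arrays at the lower. The block was therefore estimated from olmesartan and quinapril alone, the only groups with both levels, which limits this check.

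PTZ was also added to 5 diets that held another compound. Against levetiracetam alone, PTZ with levetiracetam had 5 genes lower and 0 higher, where 27.9% and 22.7% of probe sets were. ocn fell by 2.41 ± 0.088 (limma adjusted p = 1.14e-28), from 4.49 to 5.02 down to 2.47, 2.30, 2.30 and 2.36, and Mst87F fell by 1.56 ± 0.11. janB fell by 0.78 ± 0.13, Mst98Ca by 0.75 ± 0.12 and Mst98Cb by 0.30 ± 0.070, and none of these 5 had overlapping arrays (23.3% of probe sets were lower without overlap), while dj was already low and was not called (0.037 ± 0.13). The 5′ to 3′ signal differed between these groups (-5.82 and -4.14), and in a fit that held it, 2 of the 5 were called, ocn and Mst87F. In that fit janB was at -0.67 ± 0.36 and Mst98Ca at -0.84 ± 0.33, near their values without it but with larger errors, and Mst98Cb was at -0.11 ± 0.19.

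On the other 4 diets ocn and Mst87F were below the eggshell background on every array before PTZ was added, so a fall like that on normal food could not be measured there. The calls on these diets went either way, and the counts include these 2 genes. Below this background on every array were the rise of ocn on glucosamine and those of ocn, Mst87F and Mst98Cb on mannitol. So was the fall of dj on quinapril, and sizes there are no exact fold. Against glucosamine 4 genes rose and 0 fell (15.2% and 15.9% of probe sets), led by dj at 0.76 ± 0.13 and janB at 0.49 ± 0.13. Against mannitol 4 rose and 2 fell (21.1% and 22.0%): dj fell by 1.05 ± 0.13 and janB by 0.58 ± 0.13, while Mst98Ca rose by 0.38 ± 0.12, Mst87F by 0.33 ± 0.11, Mst98Cb by 0.25 ± 0.070 and ocn by 0.22 ± 0.088. The mannitol arrays of dj (4.24, 4.73, 4.54 and 4.45) lay above all arrays of the combination (3.62, 3.71, 3.10 and 3.35), as 21.2% of probe sets did. Against olmesartan 0 rose and dj alone fell, by 0.37 ± 0.13 (13.3% and 15.2%), and against quinapril 0 rose and 2 fell (20.3% and 20.2%), dj by 0.49 ± 0.13 and janB by 0.53 ± 0.13.

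The olmesartan call of dj was lost without olmesartan replicate 2 or 3 or combination replicate 1 or 3 (0 called, adjusted p = 0.0546 to 0.0972). ocn against mannitol was lost without mannitol replicate 2, 3 or 4 or combination replicate 1, 3 or 4, and Mst87F without mannitol replicate 2 (0.23, adjusted p = 0.113), which left 4 of the 6 called. Mst98Ca against glucosamine was not called with the bioB level as a block (0.33, limma adjusted p = 0.233), where the bioB level again differed between the groups compared.

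The difference between the PTZ change on each of 5 diets and that on normal food was itself tested, and all 30 differences were called higher (limma adjusted p under 0.05). The share of all probe sets called higher was 16.7% for levetiracetam, 17.1% for glucosamine, 21.9% for mannitol, 23.1% for olmesartan and 21.3% for quinapril. For ocn the difference was 2.27 with levetiracetam and 4.57 to 5.01 on the other 4 diets, and for Mst87F it was 1.58 and 2.91 to 3.46. It was 1.22 to 3.03 for dj, with mannitol lowest, and 1.70 to 2.97 for janB. For Mst98Ca it was 1.02 to 2.16 and for Mst98Cb 0.61 to 1.16. These 5 tests share the normal food and PTZ arrays, and all 4 normal food arrays enter each of them with the high levels described above. Since ocn and Mst87F lay below the eggshell background on glucosamine, mannitol, olmesartan and quinapril before PTZ, and Mst98Cb on every diet, the direction of these differences was fixed by the normal food arrays. They therefore do not show that the action of PTZ on these genes depends on the diet.

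**Figure D4:**
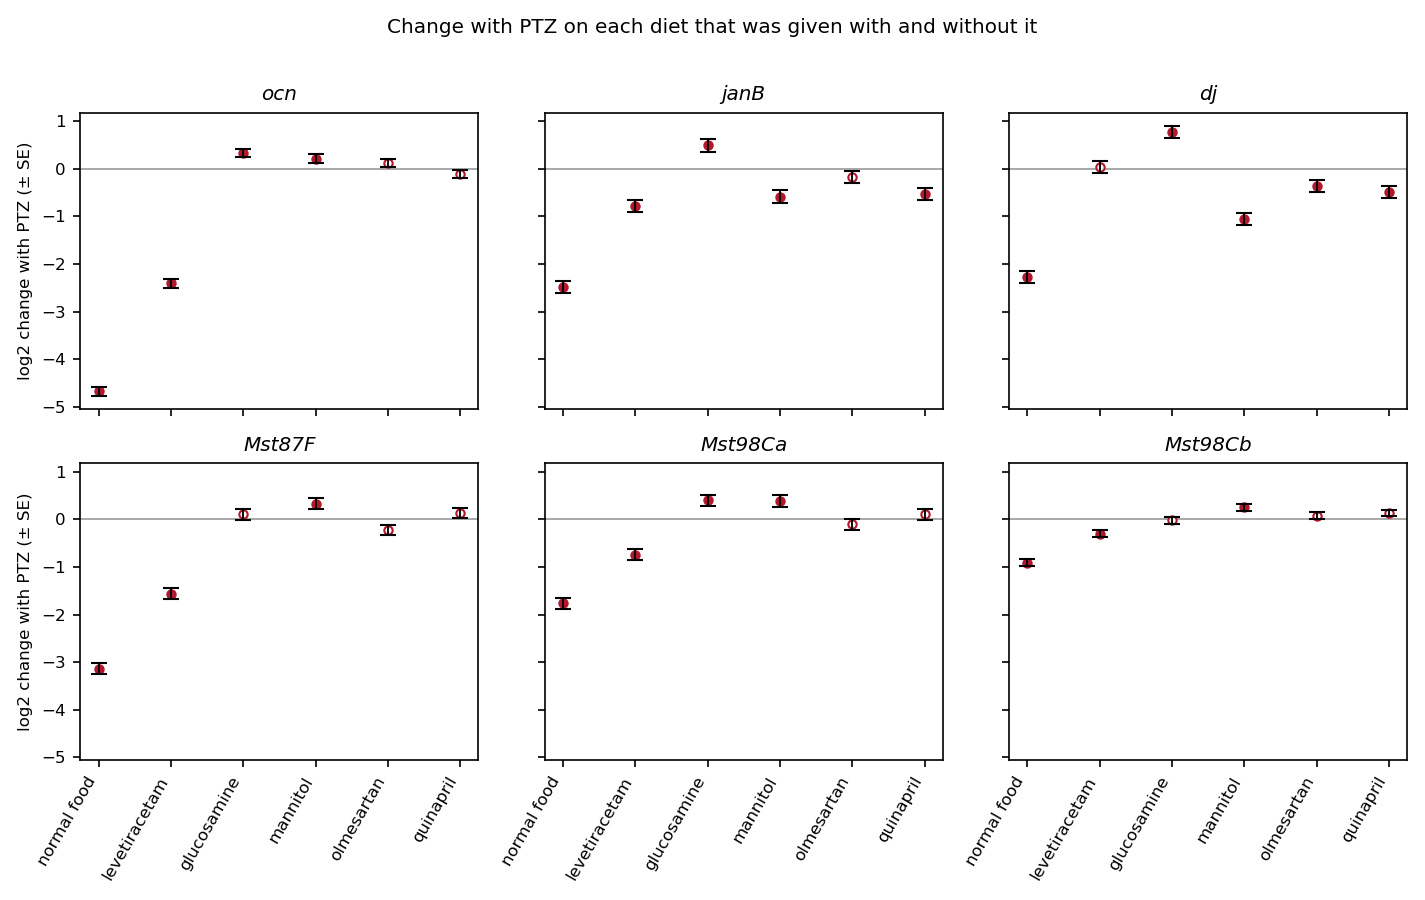
Log2 change with PTZ (vertical axis, with SE) on normal food and on the 5 diets given with and without it (horizontal axis), one panel a gene. Filled points are called and open points are not. The fall of ocn is 4.68 on normal food, 2.41 with levetiracetam and within 0.33 of 0 on the other 4 diets, where ocn was below the eggshell background before PTZ.

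Among themselves the 6 genes followed a shared pattern to different degrees. Over the 15 group means, the correlation with the mean of the 6 was 0.97 for ocn and Mst87F, 0.94 for janB, 0.93 for Mst98Ca, 0.87 for Mst98Cb and 0.71 for dj. Each gene is part of that mean and normal food weighs heavily in it: without normal food these values were 0.93 for ocn, 0.86 for Mst87F, 0.75 for janB, 0.82 for Mst98Ca, 0.46 for Mst98Cb and 0.45 for dj. Of 3304 other genes whose group means ranged over at least 1, the 8 most like the mean of the 6 were CG31820, CG18449, CG31948, CG31740, CG31788, yip7, CG15219 and CG15200. Their Pearson correlations over 15 groups were 0.978 to 0.988, and 0.912 to 0.958 without normal food. CG31820, the most alike, was at 6.77 on normal food, 4.41 with levetiracetam, 4.80 with moxifloxacin and 2.98 with PTZ, and CG15219 was at 7.39, 4.66, 4.75 and 2.81. All 8 had their 3 highest means in normal food, levetiracetam and moxifloxacin, as did the mean of the 6 by which they were chosen.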

How the data were processed

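RNA from fly heads (250 ng per array) was measured on 58 one-colour Affymetrix Drosophila Genome 2.0 arrays. The authors deposited 1 table of log2 probe set levels, made with RMA (robust multi-array averaging, which corrects background, quantile-normalizes arrays and summarises probes); RMA and limma are named per the submitters' processing notes, and neither their versions nor the annotation build is stated in what was used here. RMA makes the arrays' distributions alike (array medians 3.68 to 3.85) and compresses differences of dim probe sets. Precision is limited by how many arrays a group has, and no detection calls were used.

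Of 18952 probe sets, 183 controls were left out and 18769 were tested. The platform annotation gave 1 gene symbol to 13647 probe sets, several to 402 and none to 4720, and 13544 were matched to RefSeq, giving 11982 genes. 1 linear model over all 15 groups was fitted with limma 3.58.1 in R 4.3.3 (moderated statistics, Benjamini-Hochberg adjustment over all probe sets of a comparison, threshold 0.05). There were 24 comparisons: 8 compounds against normal food, 6 combinations against PTZ, 5 against the same drug alone, and 5 differences between PTZ changes. On simulated data with 18769 probe sets, the PTZ comparison recovered 52% of changes of 0.25, 86% of 0.5 and 100% of 1, and the moxifloxacin comparison 28%, 78% and 100%. Only 50 probe sets were changed at each size, far fewer than were called in these data, so recovery in the data may differ. The 6 genes, and the genes named beside them, were taken from lists by symbol, each through its probe set with the highest mean, and the 8 similar genes by Pearson correlation over group means. Genes and lists were chosen with earlier results of these data known. Replicate numbers did not pair the samples. Alternatives were other model settings, a second quantile normalization, a filter on the dimmest 40% of probe sets, a mean of other groups as the reference, and leaving out each array.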

Additional observations from a re-analysis of the deposited data

Results flagged for a closer look

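In 3 of the 84 groups of 4 arrays tested over the 6 genes, 1 array stood apart from the other 3 by Dixon's criterion, which chance meets in about 5% of groups. They were ocn in PTZ with glucosamine, replicate 2 (2.35, the others at 2.56), janB in PTZ with levetiracetam, replicate 3 (4.27, the others 3.97 to 4.01), and Mst98Ca in levetiracetam, replicate 4 (4.64, the others 4.12 to 4.21).

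The change with PTZ differed between normal food and each other diet for all 6 genes in limma's test of the difference. On these diets ocn and Mst87F, except with levetiracetam, were below the eggshell background before PTZ, and Mst98Cb was below it on every array. All these tests share the normal food and PTZ arrays. As stated in the Results, they do not show that the action of PTZ on these genes depends on the diet. In the order levetiracetam, glucosamine, mannitol, olmesartan and quinapril, the differences were 2.27, 5.01, 4.89, 4.80 and 4.57 for ocn. They were 1.70, 2.97, 1.90, 2.31 and 1.96 for janB. For dj they were 2.30, 3.03, 1.22, 1.90 and 1.77. For Mst87F they were 1.58, 3.24, 3.46, 2.91 and 3.27, for Mst98Ca 1.02, 2.16, 2.15, 1.66 and 1.87, and for Mst98Cb 0.61, 0.89, 1.16, 0.99 and 1.04.

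On some pairs of diets the arrays moved in opposite directions with PTZ without overlap, and the difference within these pairs was not tested. Moves without overlap were common among all probe sets. On the diets where genes fell below, 14.9% (olmesartan) to 23.3% (levetiracetam) of probe sets were lower with PTZ without overlap. Where genes rose, 15.4% (glucosamine) to 20.2% (mannitol) were higher. The share of probe sets with opposite moves on a pair was not counted, so these pairs are not shown to be particular to these genes. ocn was at -2.41 on levetiracetam and 0.22 on mannitol. janB was at -0.78 on levetiracetam, 0.49 on glucosamine and -0.58 on mannitol, the middle value opposing each of the others. dj was at 0.76 on glucosamine against -1.05 on mannitol and -0.49 on quinapril. Mst87F was at 0.33 on mannitol against -1.56 on levetiracetam and -0.22 on olmesartan. Mst98Ca was at -0.75 on levetiracetam and 0.38 on mannitol, and Mst98Cb at -0.30 on levetiracetam and 0.13 on quinapril. Some of these changes lay below the eggshell background on every array, with and without PTZ. They were those of ocn on mannitol, Mst87F on mannitol and olmesartan, dj on quinapril and Mst98Cb on both diets. Mst87F on olmesartan and Mst98Cb on quinapril were also not called.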

How the results depend on the processing

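All 48 calls against normal food and all 30 differences of PTZ changes kept their direction and side of the threshold under every alternative except the mean of the other groups as reference and, where 3 of 6 genes were not tested, the dim filter. With that mean as reference the sign turned with levetiracetam for ocn (2.11), janB (0.43), Mst87F (1.22), Mst98Ca (0.26) and Mst98Cb (0.30), and with moxifloxacin for ocn (1.91), janB (0.44), dj (0.78), Mst87F (0.58), Mst98Ca (0.52) and Mst98Cb (0.031). It turned for dj with mannitol (0.63) and olmesartan (0.48), for janB with olmesartan (0.32) and quinapril (0.072), and with gemfibrozil for Mst87F (0.055), Mst98Ca (0.15) and Mst98Cb (0.094), where 2 genes were called. Among combinations it turned for dj with levetiracetam (-0.38), mannitol (-0.22), quinapril (-0.23) and oxaprozin (-0.011) and for Mst98Ca with olmesartan (-0.054), where 2 were called. The change of reference is the alternative's own construction. The filter on the dimmest 40% of probe sets left janB, dj and Mst98Ca of the 6 among 11261 probe sets. It therefore gave 3 calls against normal food, in the differences of PTZ changes and against mannitol, 1 for PTZ with levetiracetam against PTZ, and 2 for PTZ with quinapril against PTZ and for PTZ with levetiracetam against levetiracetam. Fitting only the groups compared gave 1 call for PTZ with levetiracetam and 0 for PTZ with quinapril, against PTZ. The 5′ to 3′ covariate gave 0 for PTZ with levetiracetam or oxaprozin against PTZ and 2 against levetiracetam, the bioB block 1 for PTZ with mannitol against PTZ, and a variance trend 2 for PTZ with quinapril; the cause was not tested. The 5′ to 3′ covariate moved the count of probe sets called from 7769 to 4997 for glucosamine against normal food, from 7218 to 3419 for PTZ with levetiracetam against PTZ, from 9487 to 4716 against levetiracetam, and from 7942 to 4924 for the quinapril difference. The bioB block moved it from 4532 to 2146 and from 6287 to 3948 for PTZ with glucosamine and with mannitol against PTZ and from 5830 to 3700 against glucosamine, and fitting only the groups compared from 4026 to 2294 for PTZ with quinapril. Same-numbered arrays did not deviate together (correlations -0.109 to 0.0756), and with the replicate number as a block 143 of 144 results were unchanged, Mst98Ca in PTZ with quinapril being gained (0.31, limma adjusted p = 0.0418, 2 genes called). Leaving out each array gave 6 to 6 calls in every comparison with normal food and every difference; for moxifloxacin this leaves 1 array, assumed to vary like the arrays of the other groups. Against PTZ it gave 0 to 2 with levetiracetam, 2 to 3 with glucosamine, 4 to 4 with mannitol, 3 to 4 with olmesartan, 0 to 2 with quinapril and 3 to 3 with oxaprozin. Against the same drug it gave 5 to 5, 4 to 4, 4 to 6, 0 to 1 and 2 to 2 in that order without oxaprozin. The mean over a gene's probe sets was not run, since each gene had 1. Signal over background limits Mst98Cb throughout.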

Other observations

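PTZ with mannitol was the combination in which accessory gland genes, gut genes and part of the sperm genes were highest. The median level of 26 accessory gland genes was 2.92 ± 0.020 there (SD, n = 4) and 2.63 to 2.79 in the other 5 combinations. With PTZ alone it was higher, at 3.15. The median of the gut genes was 3.39 in PTZ with mannitol and 3.09 with PTZ alone. Acp98AB was at 6.42 ± 0.13 in PTZ with mannitol and at 2.80 ± 0.22 in PTZ with levetiracetam. In PTZ with mannitol, Mst98Ca and Mst98Cb had the highest of the combination means (4.30 and 2.40), and janB the lowest of all 15 (3.67). The mean of the 6 genes was 3.20 there, below 3.34 in PTZ with glucosamine and 3.22 in PTZ with olmesartan. These values were picked out after all groups were seen, and no test was made of them.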
